A study of Mus musculus with 12 samples.

Results

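The genes described here encode the steps of glycolysis, the transporters that bring glucose in and take lactate out, the hypoxia-inducible factor (HIF) pathway and a set of HIF target genes. They were chosen by symbol: 40 symbols were listed and 39 of them had a row in the deposited table of 11022 genes. The remaining symbol, Pkm, is a second name of the gene that the table lists as Pkm2. That row counts the whole gene, so its splice forms cannot be told apart here. Of the 39 genes, 4 are transporters, 10 act in upper glycolysis, 5 in lower glycolysis, 4 on pyruvate and lactate, 6 belong to the HIF pathway and 10 are other HIF target genes.

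RNA sequencing was used to measure mRNA in cytotoxic T lymphocytes (CTL) of P14 mice, whose CD8+ T cells carry a transgenic T cell receptor (TCR) for the LCMV peptide gp33-41. Cells of 3 female mice aged 9 to 13 weeks were activated for 48 h, expanded in IL-2 and used on day 7, so that every group holds CTL that had already met antigen and that were kept in 20 ng/mL IL-2. The 4 groups of 3 cultures were unstimulated CTL, CTL stimulated for 4 h with 100 ng/mL peptide (TCR), and CTL stimulated likewise in the presence of 10 µM IC87114, which inhibits PI3K p110δ, a kinase that phosphorylates membrane lipids (TCR + PI3Kdi), or of 2 µM PD184252, an inhibitor of the kinase MEK (TCR + MEKi). Each inhibitor was used at 1 dose and 1 time, only together with peptide, and all cells share 1 transgenic receptor.

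Glycolysis turns glucose into pyruvate in the cytosol, and activated T cells pass much of that pyruvate on to lactate even when oxygen is present. HIF-1 is a transcription factor made of the HIF-1α and ARNT proteins. When oxygen is sufficient, prolyl hydroxylases (the Egln genes) mark HIF-1α, the VHL protein binds it and it is degraded, so that the activity of the pathway is set largely at the protein level, which these data do not measure. In CTL, antigen receptor and IL-2 signalling raise HIF-1α protein without hypoxia, and glucose transporters, hexokinase 2, lactate dehydrogenase A and pyruvate dehydrogenase kinase 1 are among its known targets.

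ACGTG is a core sequence of the DNA elements that HIF-1 binds, and the related E-box CACGTG is bound by factors such as MYC and MAX. RefSeq start sites of GRCm38.p6 gave 53 promoter windows of 250 bases upstream for 36 of the 39 genes. ACGTG was present on either strand in 23 of the 53 windows (43.4%), belonging to 20 of the 36 genes, against 16.6% of the 32851 windows of all genes, where 4998 of 27025 genes held a match. The members were picked as glycolysis and HIF genes, and the set of all genes was not limited to those in the deposited table. The difference in these shares therefore follows in part from how the genes were chosen, and it was not tested. CACGTG, which contains ACGTG on both strands, was present in 11.3% of the members' windows and 6.02% of all windows. The stretches below are shown because they hold such matches next to genes whose mRNA did not pass the test (Ldha), rose (Hk2, P4ha2, Egln3) or fell (Bnip3, Slc16a3) after stimulation. Each is written 5′ to 3′ on the strand of the gene with capitals for ACGTG, its reverse complement CACGT, or CACGTG.
Ldha, chr7:46845639-46845794, plus strand: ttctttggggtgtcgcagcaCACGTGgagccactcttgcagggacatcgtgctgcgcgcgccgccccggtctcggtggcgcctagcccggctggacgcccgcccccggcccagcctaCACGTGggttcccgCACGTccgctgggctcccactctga
Hk2, chr6:82774482-82774700, minus strand: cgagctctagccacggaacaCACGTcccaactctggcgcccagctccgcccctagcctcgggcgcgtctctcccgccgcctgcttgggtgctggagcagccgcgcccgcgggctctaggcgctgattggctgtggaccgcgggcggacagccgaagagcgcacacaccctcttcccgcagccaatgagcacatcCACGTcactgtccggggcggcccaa
P4ha2, chr11:54100826-54100870, plus strand: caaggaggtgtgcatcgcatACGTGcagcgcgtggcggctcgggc
Egln3, chr12:54204079-54204123, minus strand: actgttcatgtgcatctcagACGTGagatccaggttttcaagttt
Bnip3, chr7:138909589-138909634, minus strand: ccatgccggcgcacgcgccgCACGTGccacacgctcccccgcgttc
Slc16a3, chr11:120949020-120949066, plus strand: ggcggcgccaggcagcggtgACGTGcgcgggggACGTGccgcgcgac
The Ldha stretch holds 3 matches, 2 of them CACGTG, and ends 10 bases before the start site. The Hk2 stretch holds 2 matches and no CACGTG, and the Bnip3 stretch holds a single CACGTG between 83 and 128 bases before the start. A match is a string of letters and not a measured binding site. Genes with a match thus stand among those that rose, those that fell and those that did not pass. Pdk1 and Kdm3a, whose levels fell after stimulation, had no match to ACGTG within these windows. Other forms of the core were not searched for.

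Values are FPKM, fragments relative to gene length and library size, which the authors scaled between samples by TMM, and they are given as mean ± SD over n = 3 cultures. A gene passed the test at a Benjamini-Hochberg adjusted p under 0.05 over all 11022 genes, by limma on log2(FPKM + 0.1) with all 12 samples in 1 fit, and was called when the change was also over 2-fold. Fold changes of genes below about 1 FPKM are understated by the added 0.1. The effective depth, estimated from the spacing of low values, was between 7840000 and 13260000 reads per sample. Replicates of a group correlated across genes with r between 0.992 and 0.995. The labelled cell type was checked by markers. All 8 CD8 T cell and CTL markers were in the table, with a summed level of 10151 to 16481 FPKM per sample, none of 5 B cell and none of 3 erythroid markers was, and of 6 myeloid markers only Itgax was, at 0.29 to 0.75 FPKM. Of 3 NK cell markers Ncr1 was not in the table. The other NK cell markers, Klrb1c and Eomes, the second of which CTL also express, summed to 74.7 to 83.6 FPKM in unstimulated CTL, 108 to 114 with TCR, 112 to 117 with TCR + PI3Kdi and 73.2 to 82.0 with TCR + MEKi, and 3 stromal and epithelial markers to 10.9 to 13.3, 12.7 to 14.6, 7.80 to 10.3 and 14.3 to 16.7 FPKM in the same order of groups. Of 3 CD4 T cell markers Foxp3 was not in the table, and Cd4 and Zbtb7b summed to 5.27 to 11.3 FPKM. The part of these cells in the results was not tested. In bulk RNA of a culture, fewer cells that express a gene and less RNA of it per cell cannot be told apart.

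How samples are scaled matters for these genes because many of them are abundant and changed little. The FPKM of all genes summed to 480159 in unstimulated CTL, 639396 with TCR, 563394 with TCR + PI3Kdi and 533000 with TCR + MEKi. With the deposited scaling the median gene had a log2 fold change of -0.01 after stimulation. Rescaling every sample to the same FPKM sum (the TPM scale) moved that median to -0.41, and to 0.19 and 0.26 for the PI3K and the MEK inhibitor against TCR. Where a scaling turned the direction of a gene that passed, this is stated with its value. Shares of an isozyme within its family, given here from the deposited FPKM, are the same on the TPM scale, but quantile normalisation can change them.

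The first comparison asked how antigen receptor stimulation changed the expression of these genes. Of the 39 genes, 28 passed the test after TCR stimulation, 14 higher and 14 lower, where 68.6% of all 11022 genes passed (33.6% higher and 34.9% lower). Of these, 9 were called at over 2-fold, 5 higher and 4 lower, beside a share of 20.0% of all genes (8.87% higher and 11.1% lower). The median log2 fold change of the 39 genes was -0.01, as it was over all genes. On the TPM scale 9 of the 39 genes passed as higher and 25 as lower, and after quantile normalisation 12 and 21. The groups did not overlap in 28 of the 39 genes, and in 71.2% of all genes. The abundant glycolytic enzymes differed little on the deposited scale, while transporters, regulatory enzymes and HIF targets went apart in both directions.

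**Figure D1:**
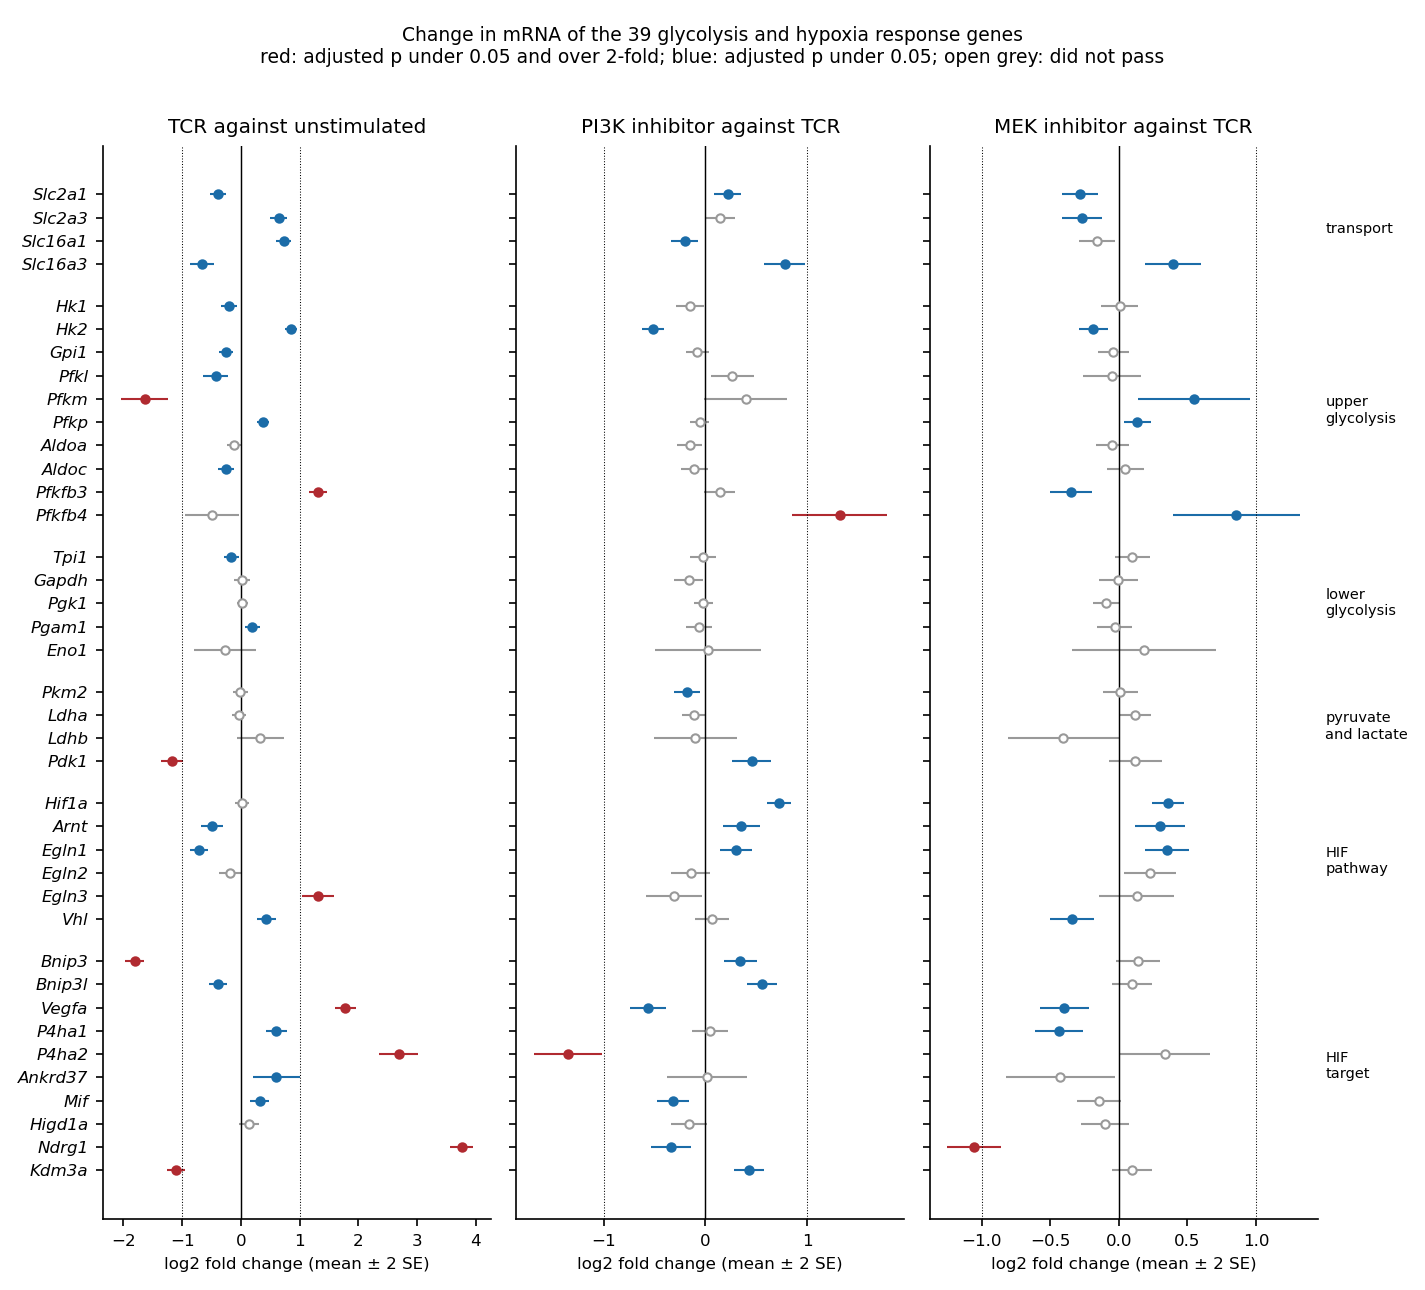
Log2 fold change of each of the 39 genes (points, with lines of ± 2 SE from limma) for TCR against unstimulated CTL and for each inhibitor against TCR, grouped by role; each panel has its own horizontal axis and dotted lines mark 2-fold. After stimulation 9 genes lay past 2-fold with an adjusted p under 0.05, from Bnip3 at -1.81 to Ndrg1 at 3.76, and the lower glycolysis genes lay close to 0.

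The enzymes of the main line from glucose to lactate are 16 of the genes, spread over 11 steps. Their summed level was 7065 ± 72.9 FPKM in unstimulated CTL, 6966 ± 308 with TCR, 6352 ± 163 with TCR + PI3Kdi and 7007 ± 268 with TCR + MEKi. As a share of the FPKM of all genes the sum went from 1.47% ± 0.0542 to 1.09% ± 0.0122 with TCR, 1.13% ± 0.0282 with TCR + PI3Kdi and 1.31% ± 0.0324 with TCR + MEKi. On either scale 5 genes carried 87.1% of it: Gapdh 32.2%, Ldha 17.0%, Pkm2 14.9%, Aldoa 14.3% and Pgk1 8.65%. The sum thus says little about the less abundant enzymes that control the flow.

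Taken step by step, and leaving out enolase, the summed level after TCR stimulation lay between 0.839 times (glucose phosphate isomerase) and 1.27 times (hexokinase) that in unstimulated CTL. Hexokinase and phosphofructokinase, the steps at which cells control entry into glycolysis, had the highest ratios, given here on the deposited scale. On the TPM scale the log2 fold changes were 0.44 for Hk2, -0.61 for Hk1, -0.04 for Pfkp, -0.84 for Pfkl and -2.04 for Pfkm. The rises of summed hexokinase and of summed phosphofructokinase thus did not hold on that scale. On the deposited scale hexokinase went from 96.1 ± 2.21 to 122 ± 5.69 FPKM, and phosphofructokinase from 120.1 ± 5.62 to 139 ± 4.75 FPKM, a ratio of 1.16. With TCR + PI3Kdi the hexokinase sum was 95.5 ± 5.64 FPKM, and with TCR + MEKi it was 114 ± 3.39 FPKM.

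Among the glucose transporters, Slc2a3 (GLUT3) rose from 70.4 ± 5.51 to 109.8 ± 5.18 FPKM (log2 change 0.64 with SE 0.07, adjusted p = 1.77e-06). Slc2a1 (GLUT1), the transporter best known for its rise during T cell activation, was already at 54.2 ± 3.50 FPKM in these IL-2 maintained CTL and fell to 41.4 ± 2.10 FPKM (log2 change -0.39 with SE 0.07, adjusted p = 8.74e-05). The share of Slc2a1 in the summed FPKM of both genes went from 43.5% ± 0.758 to 27.4% ± 1.30 with TCR.

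Both genes for monocarboxylate transporters, which carry lactate and pyruvate across the cell membrane, also moved apart. Slc16a1 (MCT1) rose from 36.1 ± 2.68 to 59.7 ± 3.20 FPKM (log2 change 0.73 with SE 0.07, adjusted p = 1.72e-07). Slc16a3 (MCT4, the exporter typical of strongly glycolytic cells; Entrez gene 80879, chromosome 11, 120948480 to 120960868, GRCm38 as for all positions here) stood at 27.4, 25.8 and 24.3 FPKM in the unstimulated cultures and at 19.1, 13.6 and 16.4 FPKM with TCR. The groups did not overlap, and the fall was 0.634 times (log2 change -0.67 with SE 0.10, adjusted p = 3.78e-05). The share of Slc16a3 in the pair went from 41.8% ± 2.54 to 21.6% ± 3.74.

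Hexokinase traps glucose in the cell by phosphorylation, and the isoform Hk2 is the inducible one. Hk2 (Entrez gene 15277, chromosome 6, 82725025 to 82774454) measured 42.0, 41.0 and 40.2 FPKM in the unstimulated cultures and 71.6, 72.9 and 78.7 FPKM with TCR, a rise of 1.81 times with no overlap (log2 change 0.85 with SE 0.05, adjusted p = 1.76e-09). Hk1, the constitutive isoform, fell from 55.0 ± 1.44 to 48.1 ± 2.47 FPKM (log2 fold change -0.20, adjusted p = 0.0196). The hexokinase mRNA thus changed from mostly Hk1 (57.3% ± 0.368) to mostly Hk2 (60.7% ± 1.06).

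Phosphofructokinase commits sugar to glycolysis, and its 3 isoforms changed unequally. Pfkp, the platelet type, was the main isoform with 93.8 ± 5.38 FPKM in unstimulated CTL and 122 ± 1.79 FPKM with TCR (log2 fold change 0.38, adjusted p = 6.85e-06), a direction that turned to -0.04 on the TPM scale. Pfkl, the liver type, fell from 21.9 ± 0.831 to 16.4 ± 3.11 FPKM (log2 fold change -0.43, adjusted p = 0.00232). Pfkm, the muscle type (Entrez gene 18642, chromosome 15, 98092589 to 98132451), stood at 4.58, 4.09 and 4.54 FPKM unstimulated and 1.88, 1.09 and 1.17 FPKM with TCR (log2 change -1.64 with SE 0.20, adjusted p = 4.46e-06). All 3 stimulated cultures lay below all 3 unstimulated ones, and the share of Pfkm in phosphofructokinase mRNA went from 3.67% ± 0.131 to 0.984% ± 0.273 while that of Pfkp went from 78.1% ± 1.08 to 87.3% ± 2.08.

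The bifunctional enzymes encoded by Pfkfb3 and Pfkfb4 make and break down fructose 2,6-bisphosphate, the activator of phosphofructokinase. Pfkfb3, whose product mostly makes it (Entrez gene 170768, chromosome 2, 11471433 to 11554077), stood at 9.45, 8.93 and 7.90 FPKM in unstimulated CTL and at 22.4, 22.1 and 21.2 FPKM with TCR, 2.50 times higher (log2 change 1.32 with SE 0.08, adjusted p = 1.06e-09). The rise was under 2-fold on the TPM scale. Pfkfb4 (Entrez gene 270198, chromosome 9, 108991778 to 109032228) was at the edge of detection, with 0.34, 0.54 and 0.63 FPKM unstimulated and 0.21, 0.36 and 0.42 FPKM with TCR, which correspond to between 7 and 36 reads over all samples. Its groups overlapped and its difference did not pass the test (log2 change -0.49 with SE 0.23, adjusted p = 0.073).

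**Figure D2:**
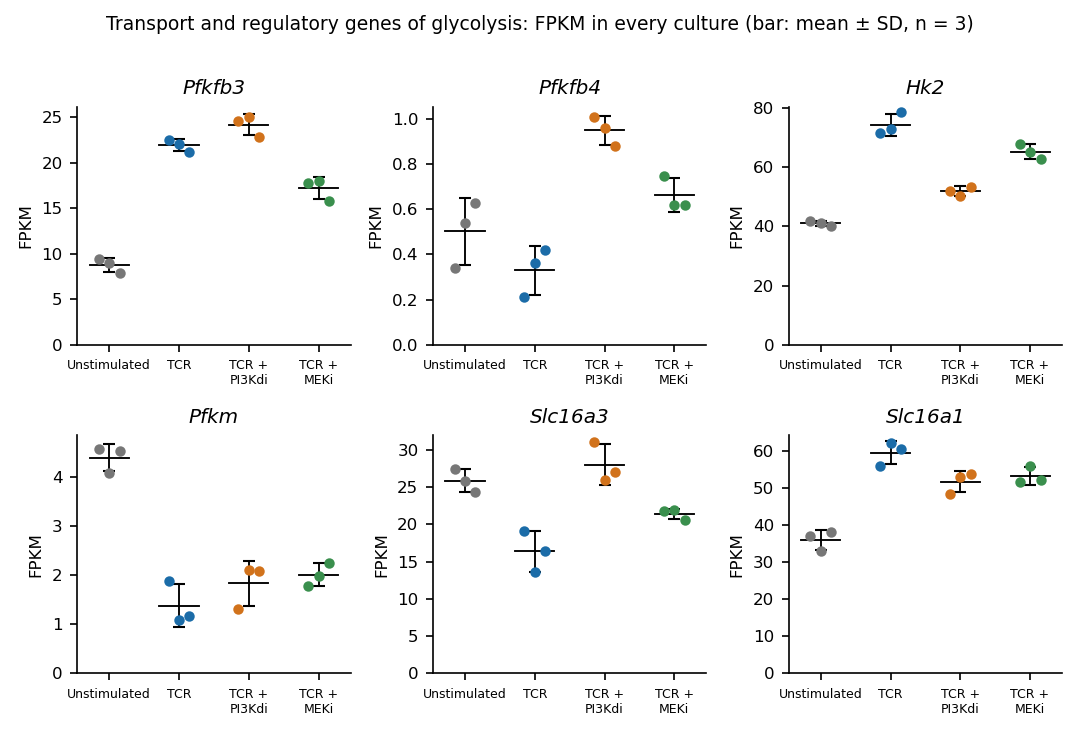
FPKM in each culture (points) with the group mean ± SD (bars, n = 3) for Pfkfb3, Pfkfb4, Hk2, Pfkm, Slc16a3 and Slc16a1 in the 4 groups, on linear axes that start at 0. In these deposited FPKM, Hk2 with TCR + PI3Kdi sat between the unstimulated and the TCR cultures, and all 3 TCR cultures of Slc16a3 lay below those of the other groups.

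The remaining enzymes of the main line differed little. Gpi1 fell to 0.839 times its unstimulated level (log2 fold change -0.25, adjusted p = 0.00102), Aldoc to 0.838 times (log2 fold change -0.26, adjusted p = 0.00317) and Tpi1 to 0.893 times (log2 fold change -0.17, adjusted p = 0.0328). Pgam1, phosphoglycerate mutase, rose 1.15 times (log2 fold change 0.19, adjusted p = 0.0152), a direction that turned to -0.22 on the TPM scale. Aldoa, the main aldolase, Gapdh, Pgk1, Pkm2 and Ldha did not pass the test. Their log2 fold changes ± 2 SE ran from -0.24 to 0.01 for Aldoa, -0.12 to 0.16 for Gapdh, -0.07 to 0.12 for Pgk1, -0.13 to 0.12 for Pkm2 and -0.16 to 0.08 for Ldha, so that changes of 2-fold lie outside these intervals. Under either other scaling all 5 passed as lower. Gapdh shares 73.9% and Pgk1 67.0% of their 100-base stretches with other annotated genes, mostly processed pseudogenes, and how the counting treated such reads was not given in the sources used here.

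Lactate dehydrogenase turns pyruvate into lactate. Ldha made up 99.9% of its mRNA in every group, at 1185 ± 38.2 FPKM in unstimulated CTL and 1153 ± 47.8 FPKM with TCR. Ldhb (Entrez gene 16832, chromosome 6, 142490249 to 142507957), which favours the reverse reaction, was at 1.17, 1.41 and 0.99 FPKM unstimulated and 1.75, 1.56 and 1.26 FPKM with TCR. Its groups overlapped, it rested on 10 to 24 reads per sample and its difference did not pass the test (log2 fold change 0.33, adjusted p = 0.158).

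Enolase is the step at which the table is least informative. Eno1, the enolase that most cells use (Entrez gene 13806, chromosome 4, 150236721 to 150248879), was listed at 0.45, 0.86 and 0.85 FPKM in unstimulated CTL and 0.4, 0.68 and 0.63 FPKM with TCR, while the genes of the steps on either side, Pgam1 and Pkm2, were at 75.7 and 1056 FPKM. The value rests on 8 to 23 reads and 59.0% of its 100-base stretches also occur in other genes, 58.6% in the near-identical copy Gm5506, itself listed at 0.21 to 0.71 FPKM. The level of enolase 1 mRNA is therefore uncertain, and its log2 fold change of -0.27 (SE 0.26, adjusted p = 0.37) says little. Eno3, the muscle enolase, which was added after its values were seen, was at 5.01 ± 0.41 FPKM in unstimulated CTL and 4.94 ± 0.639 FPKM with TCR (log2 fold change -0.03, adjusted p = 0.865).

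Pdk1 encodes a kinase that switches off pyruvate dehydrogenase and so keeps pyruvate out of the mitochondria. Pdk1 (Entrez gene 228026, chromosome 2, 71873224 to 71903858) stood at 12.9, 10.6 and 11.4 FPKM in the unstimulated cultures and at 5.07, 4.98 and 5.26 FPKM with TCR. It fell to 0.438 times (log2 change -1.17 with SE 0.10, adjusted p = 4.87e-08) without overlap. Together with Slc16a3 and Slc2a1 it was one of the known HIF-1 targets among the metabolic genes that fell while Hk2 and Pfkfb3 rose.

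**Figure D3:**
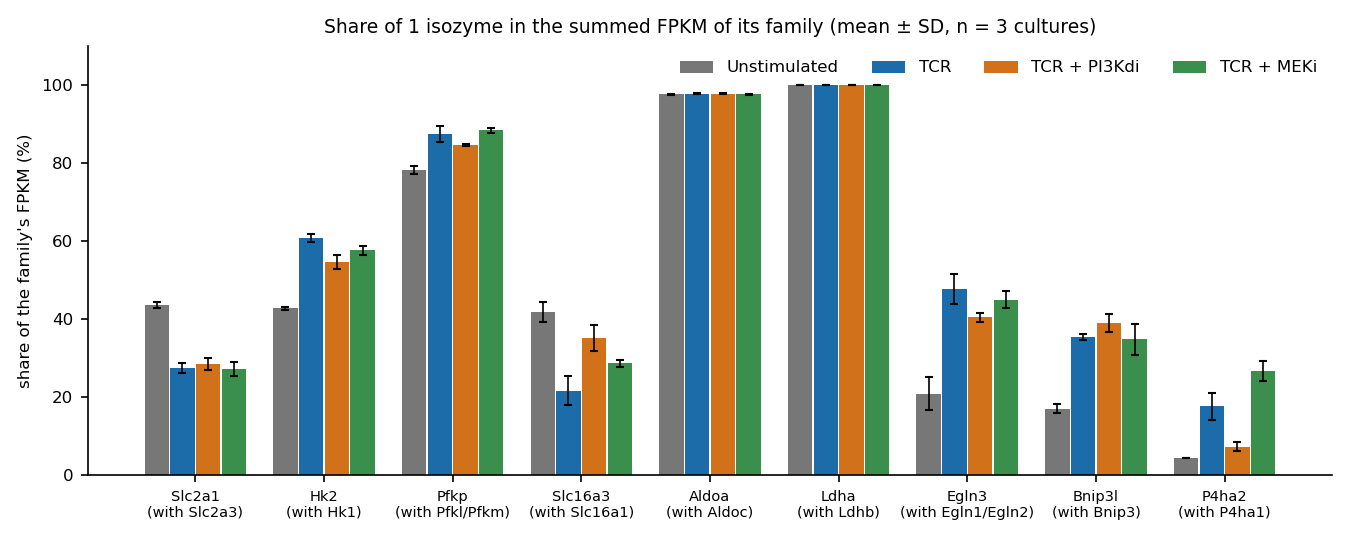
Share of 1 isozyme in the summed FPKM of its family (bars, mean ± SD over 3 cultures) for 9 families in the 4 groups, from the deposited FPKM. With TCR the share of Hk2 went from 42.7% to 60.7%, that of Egln3 from 20.8% to 47.8% and that of Slc16a3 from 41.8% to 21.6%.

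In the HIF pathway, the mRNA of the regulated subunit was flat and that of its regulators was not. Hif1a (Entrez gene 15251, chromosome 12, 73901375 to 73947530) stood at 128, 115 and 118 FPKM unstimulated and 114, 128 and 124 FPKM with TCR, overlapping groups with a log2 fold change ± 2 SE of -0.10 to 0.14 (adjusted p = 0.785), which became -0.39 with adjusted p = 0.000132 on the TPM scale, near the median of all genes. Arnt, its partner, fell from 7.77 ± 0.131 to 5.51 ± 0.227 FPKM (log2 fold change -0.49, adjusted p = 2.23e-04). Vhl, which targets HIF-1α for degradation, rose from 7.63 ± 0.351 to 10.3 ± 0.108 FPKM (log2 fold change 0.43, adjusted p = 2.58e-04), and on the TPM scale it no longer passed.

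The 3 prolyl hydroxylase genes went apart. Egln1 (PHD2), held to be the main oxygen sensor, fell from 28.4 ± 2.73 to 17.2 ± 0.728 FPKM (log2 change -0.72 with SE 0.08, adjusted p = 1.26e-06), and Egln2 (PHD1) did not pass (log2 fold change -0.18, adjusted p = 0.102). Egln3 (PHD3, itself a HIF target; Entrez gene 112407, chromosome 12, 54178981 to 54203860) was at 14.8, 10.2 and 10.6 FPKM in unstimulated CTL and at 33.7, 23.8 and 31.0 FPKM with TCR. All stimulated cultures lay above all unstimulated ones, 2.48 times on average (log2 change 1.31 with SE 0.14, adjusted p = 7.07e-07), a rise that was under 2-fold on the TPM scale. The share of Egln3 in hydroxylase mRNA went from 20.8% ± 4.22 to 47.8% ± 3.83 and that of Egln1 from 49.7% ± 3.95 to 28.1% ± 2.59.

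HIF target genes held the largest changes in both directions. Ndrg1, a stress response gene induced by hypoxia in many cell types (Entrez gene 17988, chromosome 15, 66929318 to 66969640), went from 19.4, 15.7 and 13.3 FPKM in unstimulated CTL to 228, 219 and 206 FPKM with TCR, 13.5 times higher (log2 change 3.76 with SE 0.10, adjusted p = 9.04e-14). P4ha2, a subunit of the collagen prolyl 4-hydroxylase (Entrez gene 18452, chromosome 11, 54100095 to 54131665), went from 0.8, 0.65 and 0.84 to 6.86, 4.56 and 5.13 FPKM, 7.23 times higher (log2 change 2.69 with SE 0.17, adjusted p = 2.05e-09). Vegfa, the angiogenic growth factor (Entrez gene 22339, chromosome 17, 46016993 to 46032369), went from 5.25, 4.96 and 4.22 to 17.6, 16 and 16.4 FPKM, 3.46 times higher (log2 change 1.78 with SE 0.09, adjusted p = 1.63e-10). In each of these 3 genes the lowest stimulated culture lay far above the highest unstimulated one, and each stayed called under either other scaling.

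P4ha1, the more abundant isoform of the P4ha2 subunit (Entrez gene 18451, chromosome 10, 59323296 to 59373304), rose less, from 17.9, 14.5 and 18.6 FPKM to 25.4, 26.9 and 25.0 FPKM (log2 fold change 0.61, adjusted p = 2.31e-05). Its groups did not overlap. The share of P4ha2 in both went from 4.30% ± 0.0208 to 17.6% ± 3.43. Mif, a cytokine with abundant mRNA, rose from 584 ± 28.7 to 732 ± 85.6 FPKM (log2 fold change 0.32, adjusted p = 0.00228), a direction that turned to -0.09 on the TPM scale and to -0.18 by quantile normalisation. Ankrd37 passed with overlapping groups (log2 fold change 0.60, adjusted p = 0.0139, 4.25 ± 1.19 to 6.49 ± 1.52 FPKM), and did not pass on the TPM scale or without any one of unstimulated replicates 2 and 3 and TCR replicates 1 and 2. Higd1a, a mitochondrial protein gene, did not pass (log2 fold change 0.13, adjusted p = 0.182).

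Other HIF targets fell. Bnip3, whose product drives mitophagy (Entrez gene 12176, chromosome 7, 138890836 to 138909519), stood at 86.6, 77.2 and 84.7 FPKM in unstimulated CTL and at 24.6, 23.7 and 22.4 FPKM with TCR, 0.284 times (log2 change -1.81 with SE 0.08, adjusted p = 4.38e-11). Of its 100-base stretches 33.5% are shared with other annotated genes. Kdm3a, a histone H3K9 demethylase (Entrez gene 104263, chromosome 6, 71588972 to 71632990), stood at 26.4, 26.9 and 27.4 and 11.4, 12.8 and 13.3 FPKM, 0.465 times (log2 change -1.10 with SE 0.07, adjusted p = 4.94e-09). Bnip3l, the relative of Bnip3, fell less, from 16.9 ± 0.3 to 12.9 ± 0.622 FPKM (log2 fold change -0.39, adjusted p = 2.92e-04), so that its share in the pair went from 17.0% ± 1.11 to 35.4% ± 0.791. Among these 10 targets 6 thus passed as higher, 3 as lower and 1 did not pass, where 33.6% of all genes passed as higher and 34.9% as lower. The TPM scale gave 4 higher and 4 lower.

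**Figure D4:**
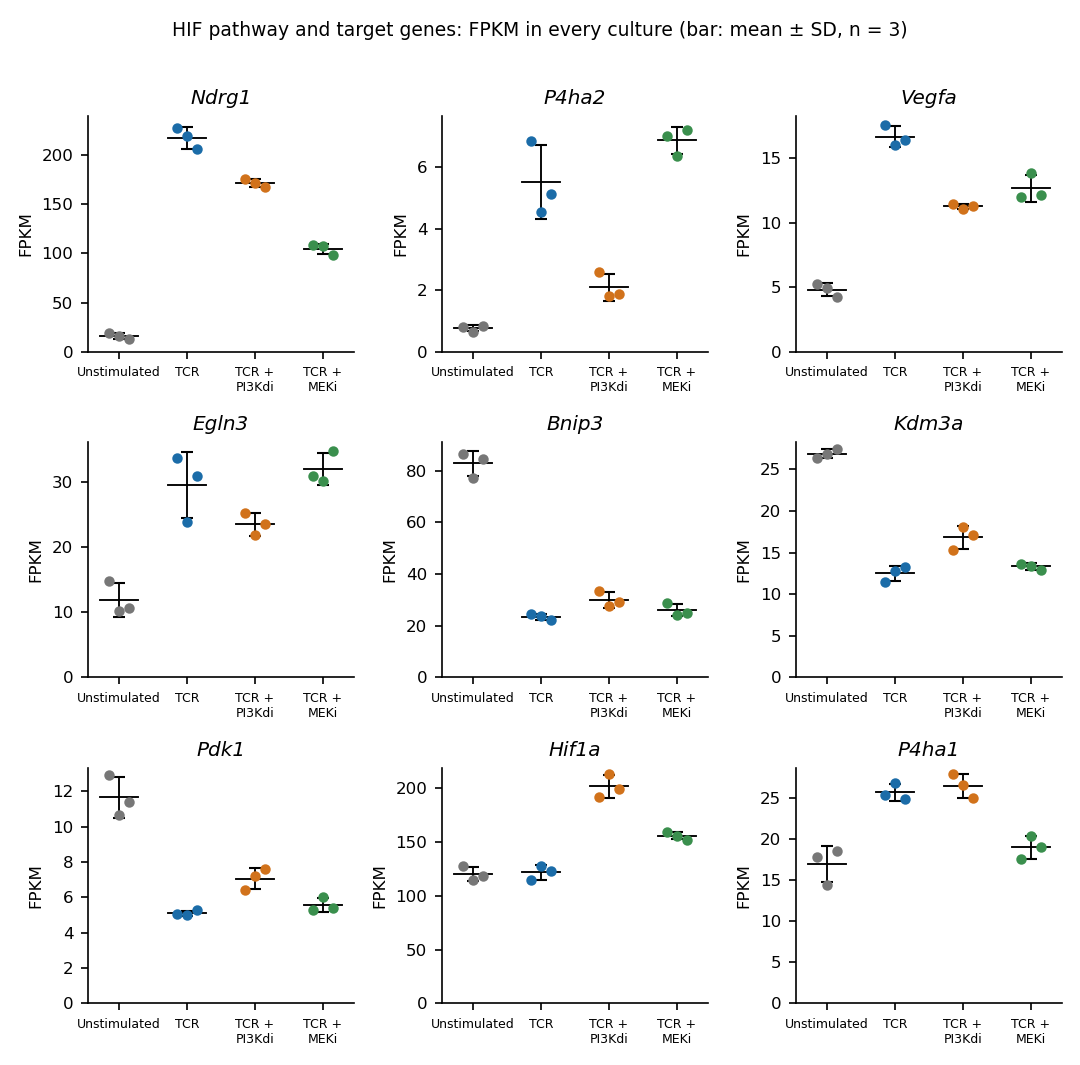
FPKM in each culture (points) with the group mean ± SD (bars, n = 3) for 9 HIF pathway and target genes in the 4 groups, on linear axes that start at 0. Ndrg1 was highest with TCR and lower with either inhibitor, P4ha2 was lower with PI3Kdi than with TCR or TCR + MEKi, Hif1a was higher with both inhibitors than with TCR, and Bnip3, Kdm3a and Pdk1 were highest in unstimulated CTL.

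The second comparison asked how inhibition of PI3K p110δ altered these levels in stimulated CTL. With PI3Kdi 17 of the 39 genes passed the test against TCR, 10 higher and 7 lower, where 25.6% of all genes passed (12.7% higher and 12.8% lower). At over 2-fold 2 were called, 1 higher and 1 lower, where 1.88% of all genes were (0.499% higher and 1.38% lower). On the TPM scale 19 passed as higher and 3 as lower. The median log2 fold change of the 39 genes was -0.02 beside 0.02 over all genes. The groups did not overlap in 21 of the 39 genes, and in 37.6% of all genes. None of the 5 genes of lower glycolysis passed on the deposited scale. On the TPM scale Tpi1 and Pgk1 passed as higher (0.16 each), and Pgk1 also did after quantile normalisation (0.16).

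P4ha2 had the largest fall with PI3Kdi, to 2.60, 1.81 and 1.88 FPKM from 6.86, 4.56 and 5.13 FPKM with TCR, 0.38 times (log2 change -1.35 with SE 0.17, adjusted p = 5.80e-05). The inhibited cultures lay between the unstimulated and the stimulated ones without touching either. Vegfa stood at 11.4, 11.1 and 11.3 FPKM, 0.675 times TCR (log2 change -0.56 with SE 0.09, adjusted p = 3.72e-04). Ndrg1 stood at 176, 172 and 168 FPKM (log2 fold change -0.34, adjusted p = 0.0196), a fall that did not pass on the TPM scale (-0.16, adjusted p = 0.231) or after quantile normalisation (-0.17, adjusted p = 0.231). Ndrg1 also did not pass without TCR replicate 1 (adjusted p = 0.072), PI3Kdi replicate 2 (0.0513) or PI3Kdi replicate 3 (0.0619).

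Hk2 was the only enzyme of the main line that passed as lower apart from Pkm2. Hk2 stood at 52.2, 50.4 and 53.5 FPKM with PI3Kdi, below all TCR cultures and above all unstimulated ones (log2 change -0.51 with SE 0.05, adjusted p = 1.00e-05), and its share of hexokinase mRNA was 54.5% ± 1.85 against 60.7% ± 1.06 with TCR. Against unstimulated CTL the log2 fold change of Hk2 with PI3Kdi was 0.34, and on the TPM scale it was 0.11 and did not pass. Pkm2 was at 928 ± 62.5 FPKM against 1051 ± 52.8 FPKM (log2 fold change -0.18, adjusted p = 0.0471), a difference that was 0.00 on the TPM scale. Slc16a1 fell to 51.8 ± 2.88 FPKM (log2 fold change -0.20, adjusted p = 0.0375) and Mif to 585 ± 33.9 FPKM (log2 fold change -0.32, adjusted p = 0.00901), and neither passed on the TPM scale.

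Other genes were higher with PI3Kdi than with TCR. The same 3 TCR cultures enter this comparison and that of TCR against unstimulated CTL, so the signs of both are not independent. Slc16a3 stood at 31.1, 25.9 and 27 FPKM, 1.71 times the level with TCR (log2 change 0.78 with SE 0.10, adjusted p = 9.17e-05), and overlapped the unstimulated cultures. Its difference from unstimulated CTL was 0.11 on the log2 scale and -0.12 on the TPM scale (SE 0.10, adjusted p = 0.353). Pdk1 stood at 6.40, 7.19 and 7.59 FPKM (log2 fold change 0.46, adjusted p = 0.00304), Kdm3a at 15.3, 18.1 and 17.2 FPKM (log2 fold change 0.43, adjusted p = 7.86e-04) and Bnip3 at 33.3, 27.5 and 29.2 FPKM (log2 fold change 0.34, adjusted p = 0.00607). These 3 stayed well below their unstimulated levels, and the inhibited cultures of each lay above all TCR cultures. Bnip3l reached 19.1 ± 0.0586 FPKM (log2 fold change 0.56, adjusted p = 9.66e-05), Arnt 7.05 ± 0.295 FPKM (log2 fold change 0.35, adjusted p = 0.0111), Egln1 21.2 ± 1.03 FPKM (log2 fold change 0.30, adjusted p = 0.0118) and Slc2a1 48.2 ± 2.60 FPKM (log2 fold change 0.22, adjusted p = 0.0227). Slc2a1 did not pass without any one of TCR replicates 2 and 3 and PI3Kdi replicates 1 and 3, with adjusted p between 0.0671 and 0.0741. Hk1, Gpi1, Aldoc, Tpi1, Pfkl and Pfkm, which had also fallen with TCR, did not pass with PI3Kdi, with log2 fold changes from -0.15 for Hk1 to 0.40 for Pfkm. Of these, Tpi1, Pfkl and Pfkm passed as higher on the TPM scale.

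Hif1a and Pfkfb4 rose with PI3Kdi. With TCR against unstimulated CTL neither had passed on the deposited scale, but both passed as lower on the TPM scale (-0.39 and -0.81), and Pfkfb4 also after quantile normalisation (-0.58). Hif1a stood at 192, 214 and 199 FPKM, above every culture of the unstimulated and TCR groups, 1.66 times TCR (log2 change 0.73 with SE 0.06, adjusted p = 1.09e-06) and 1.68 times unstimulated CTL (log2 change 0.75 with SE 0.06, adjusted p = 4.06e-08). Pfkfb4 stood at 1.01, 0.96 and 0.88 FPKM, 2.88 times TCR (log2 change 1.32 with SE 0.23, adjusted p = 8.55e-04), at the low depth given above. With a pseudocount of 1 or when genes under a mean of 1 FPKM were left out it was not called. Pfkfb3 did not pass (24.6, 25.0 and 22.9 FPKM, log2 fold change 0.14, adjusted p = 0.201). On the deposited scale Pfkl and Egln3 passed with replicate number in the fit as a block but not without it. Pfkl had a log2 fold change of 0.26 (adjusted p = 0.083 without and 0.0243 with the block) and Egln3 one of -0.31 (adjusted p = 0.11 and 0.0338). Pfkl also passed on the TPM scale (0.44). Egln3 was at 25.3, 21.8 and 23.5 FPKM.

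The third comparison asked the same of MEK, against the same 3 TCR cultures that the PI3Kdi comparison used. With MEKi 15 of the 39 genes passed against TCR, 7 higher and 8 lower, where 37.1% of all genes passed (18.9% higher and 18.2% lower). At over 2-fold 1 was called, and it was lower, where 3.49% of all genes were (0.980% higher and 2.51% lower). On the TPM scale 24 passed as higher and 1 as lower. The groups did not overlap in 18 of the 39 genes, and in 48.8% of all genes. The median log2 fold change was 0.01, as over all genes.

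Ndrg1 was the called gene, at 108, 107 and 98.3 FPKM against 228, 219 and 206 FPKM with TCR, 0.48 times (log2 change -1.06 with SE 0.10, adjusted p = 1.40e-06). The inhibited cultures lay below all TCR and all PI3Kdi cultures and 6.49 times above unstimulated CTL. Under either other scaling the fall was under 2-fold. P4ha1 fell to 17.6, 20.4 and 19.1 FPKM (log2 change -0.44 with SE 0.09, adjusted p = 0.0015), a range that overlapped the unstimulated one, while P4ha2 did not pass, at 7.03, 6.38 and 7.23 FPKM (log2 fold change 0.33, adjusted p = 0.135). On the TPM scale P4ha2 passed as higher (0.59). Vegfa stood at 12, 13.8 and 12.1 FPKM (log2 fold change -0.40, adjusted p = 0.00296), Pfkfb3 at 17.8, 18.0 and 15.8 FPKM (log2 fold change -0.35, adjusted p = 0.00274) and Vhl at 8.12 ± 0.15 FPKM (log2 fold change -0.34, adjusted p = 0.00451). P4ha1, Vegfa, Pfkfb3 and Vhl no longer passed on the TPM scale.

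Both glucose transporters fell with MEKi, Slc2a1 to 33.9 ± 1.78 FPKM (log2 fold change -0.28, adjusted p = 0.0035) and Slc2a3 to 91.2 ± 7.40 FPKM (log2 fold change -0.27, adjusted p = 0.01), and on the TPM scale neither passed. The share of Slc2a1 in their sum was 27.2% ± 1.81, against 27.4% ± 1.30 with TCR. Hk2 was at 67.9, 65.2 and 63 FPKM (log2 fold change -0.19, adjusted p = 0.0128), a direction that turned to 0.08 on the TPM scale, and it did not pass without TCR replicate 3 (adjusted p = 0.0678) or MEKi replicate 3 (0.0623).

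Higher with MEKi than with TCR were Slc16a3, at 21.8, 21.9 and 20.6 FPKM (log2 fold change 0.40, adjusted p = 0.00762), Hif1a, at 159, 156 and 152 FPKM (log2 fold change 0.36, adjusted p = 2.92e-04), Egln1, at 22.0 ± 1.87 FPKM (log2 fold change 0.35, adjusted p = 0.00315) and Arnt, at 6.84 ± 0.758 FPKM (log2 fold change 0.30, adjusted p = 0.0176). Each of these 4 kept its direction under either other scaling. Pfkfb4 was at 0.75, 0.62 and 0.62 FPKM (log2 fold change 0.86, adjusted p = 0.00979), which was called with a pseudocount of 0.01, on the TPM scale or without TCR replicate 3. Pfkp rose slightly to 133 ± 1.78 FPKM (log2 fold change 0.13, adjusted p = 0.0443). Pfkm was at 1.79, 1.99 and 2.26 FPKM with an adjusted p of 0.0483 that became 0.0567 with the replicate block, its cultures overlapped those of TCR, and its log2 fold change of 0.55 was not significant without any one of several cultures, the largest adjusted p being 0.173 without TCR replicate 2. Ankrd37, at 4.72 ± 0.424 FPKM, passed only with the block (log2 fold change -0.43, adjusted p = 0.104 without and 0.0257 with it).

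Of the genes that TCR stimulation lowered by over 2-fold, none passed as higher with MEKi apart from Pfkm. Bnip3 stood at 28.7, 24.3 and 25.1 FPKM (log2 fold change 0.14, adjusted p = 0.19), Kdm3a at 13.7, 13.4 and 12.9 FPKM (log2 fold change 0.10, adjusted p = 0.34) and Pdk1 at 5.28, 6 and 5.39 FPKM (log2 fold change 0.12, adjusted p = 0.361). These 3 passed as higher on the TPM scale, at a scaling that moved the median of all genes to 0.26. Egln3, which had risen, was at 31, 30.1 and 34.8 FPKM and did not pass (log2 fold change 0.13, adjusted p = 0.492), but it passed as higher on the TPM scale (0.39).

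The direct comparison of the inhibitor groups tests where the effects differed. Between MEKi and PI3Kdi 19 of the 39 genes passed, 7 higher and 12 lower with MEKi, where 28.9% of all genes passed (14.5% higher and 14.4% lower). With samples rescaled to the same FPKM sum 13 passed as higher and 10 as lower. At over 2-fold 1 was called, and it was higher with MEKi, where 3.09% of all genes were (1.39% higher and 1.71% lower). The groups did not overlap in 27 of the 39 genes, and in 43.6% of all genes. The TCR cultures enter this contrast only through the shared estimate of the spread. P4ha2 was the called gene, 3.28 times higher with MEKi (log2 change 1.68 with SE 0.17, adjusted p = 3.76e-06), and it remained called under either other scaling. P4ha1 differed the other way (log2 fold change -0.48, adjusted p = 9.02e-04), so that P4ha2 made up 26.6% ± 2.50 of the pair with MEKi and 7.29% ± 1.09 with PI3Kdi.

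Higher with MEKi were also Hk2 (log2 fold change 0.33, adjusted p = 2.81e-04), Egln3 (log2 fold change 0.44, adjusted p = 0.0253), Egln2 (log2 fold change 0.37, adjusted p = 0.00951), Pfkp (log2 fold change 0.19, adjusted p = 0.00859), Ldha (log2 fold change 0.23, adjusted p = 0.0106) and Pkm2 (log2 fold change 0.19, adjusted p = 0.0336). Egln3 did not pass without any one (adjusted p up to 0.0989) of PI3Kdi replicates 2 and 3 and MEKi replicate 3. Lower with MEKi were Ndrg1 (log2 fold change -0.72, adjusted p = 6.57e-05), Slc2a1 (log2 fold change -0.50, adjusted p = 4.27e-05), Pfkfb3 (log2 fold change -0.49, adjusted p = 2.47e-04), Bnip3l (log2 fold change -0.47, adjusted p = 2.64e-04), Slc2a3 (log2 fold change -0.41, adjusted p = 6.86e-04) and Vhl (log2 fold change -0.41, adjusted p = 0.00169). Slc16a3 (log2 fold change -0.38, adjusted p = 0.011), Hif1a (log2 fold change -0.37, adjusted p = 2.44e-04), Kdm3a (log2 fold change -0.33, adjusted p = 0.00363) and Pfkl (log2 fold change -0.31, adjusted p = 0.0386) were lower with MEKi as well, and so was Pdk1 (log2 fold change -0.34, adjusted p = 0.0159). Neither Pfkl (-0.23) nor Pdk1 (-0.26) passed on the TPM scale, and Pdk1 did not pass without any one of PI3Kdi replicate 3 and MEKi replicates 1 and 3 (adjusted p up to 0.0688). Bnip3 did not pass without the replicate block but did with it (log2 fold change -0.20, adjusted p = 0.0722 without and 0.0174 with it). The same held for Hk1 (0.15, adjusted p = 0.107 and 0.0471) and Ankrd37 (-0.44, adjusted p = 0.106 and 0.0256) on the deposited scale with all groups in the fit. Hk1 also passed on the TPM scale (0.23), and Ankrd37 when the compared groups were fitted alone.

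Set against unstimulated CTL, CTL stimulated with PI3Kdi or MEKi present also differed in many of these genes. With PI3Kdi 28 of the 39 genes passed, 14 in each direction, where 62.5% of all genes did (31.7% higher and 30.8% lower), and 6 were called, 4 higher and 2 lower, where 14.6% of all genes were (7.16% higher and 7.43% lower). With MEKi 24 passed, 11 higher and 13 lower, where 59.6% of all genes did (28.9% higher and 30.7% lower), and 8 were called, 4 in each direction, where 13.4% of all genes were (6.95% higher and 6.46% lower). The groups did not overlap in 32 of the 39 genes with PI3Kdi, where 66.0% of all genes did not, and in 28 with MEKi, where 66.7% did not. Both comparisons share the unstimulated samples. Called with PI3Kdi were Pfkfb3, Vegfa, P4ha2 and Ndrg1 as higher and Pfkm and Bnip3 as lower, and with MEKi Egln3, Vegfa, P4ha2 and Ndrg1 as higher and Pfkm, Pdk1, Bnip3 and Kdm3a as lower. With PI3Kdi, Vegfa was not called on the TPM scale, nor Pfkm and P4ha2 with a pseudocount of 1. With MEKi, Pdk1 was not called without unstimulated replicate 1, nor Kdm3a without unstimulated replicate 3 or MEKi replicate 3, nor Pfkm, Pdk1 and Kdm3a with a pseudocount of 1. Ndrg1 was 10.7 times higher with PI3Kdi (log2 fold change 3.43) and 6.49 times higher with MEKi (2.71). Bnip3 was 0.362 times its unstimulated level with PI3Kdi and 0.314 times with MEKi.

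**Figure D5:**
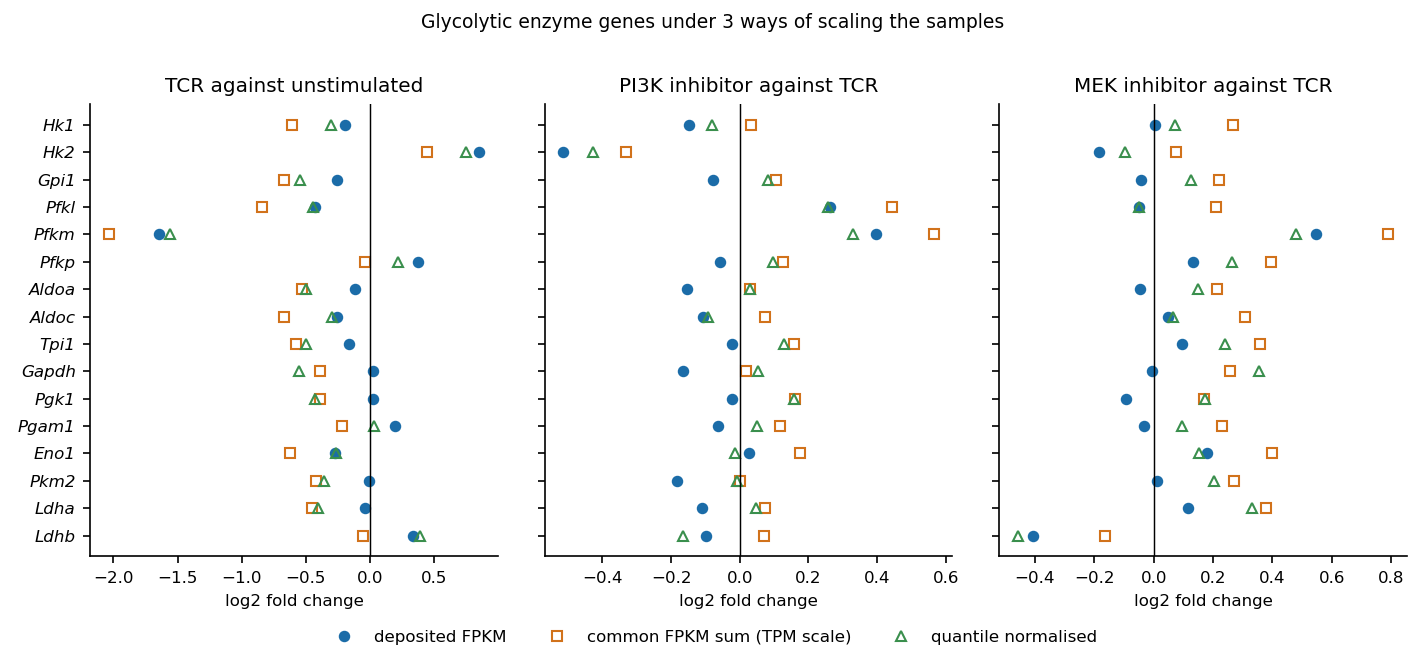
Log2 fold change of the 16 glycolytic enzyme genes for TCR against unstimulated CTL and for each inhibitor against TCR under 3 scalings: the deposited FPKM (filled circles), a common FPKM sum (open squares) and quantile normalisation (open triangles). Gapdh moved from 0.02 to -0.39 and -0.55 after stimulation, while Hk2 stayed above 0 and Pfkm below 0 under all 3.

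Other genes of these pathways were counted from lists of non-members. Of 34 further genes of glycolysis and sugar entry 21 were in the table. After TCR stimulation 8.87% of all genes were called higher and 11.1% lower, and of these 21 genes 2 were called higher and 1 lower. They were Gpd1, glycerol 3-phosphate dehydrogenase (0.0367 ± 0.0115 to 0.61 ± 0.101 FPKM, log2 fold change 2.37), Pgm3, which feeds the hexosamine pathway (4.09 ± 0.54 to 11.6 ± 0.667 FPKM, 1.49), and the hexokinase gene Hk3 (0.397 ± 0.0709 to 0.113 ± 0.0924 FPKM, -1.29). Galm, a galactose mutarotase gene, was lower with PI3Kdi than with TCR (0.47 ± 0.101 against 1.09 ± 0.235 FPKM, log2 fold change -1.05, adjusted p = 0.00361). Gpd1 fell with MEKi to 0.127 ± 0.0503 FPKM (log2 fold change -1.66, adjusted p = 0.00013). Eno3 rose with MEKi against TCR to 7.75 ± 0.773 FPKM (log2 fold change 0.64, adjusted p = 0.00124).

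Of 21 further sugar and monocarboxylate transporters 8 were in the table, with 2 called higher and 2 lower after stimulation, beside 8.87% and 11.1% of all genes. Among them were Slc16a13 (3.07 ± 0.361 to 7.72 ± 1.14 FPKM) and Slc2a8 (2.26 ± 0.165 to 0.587 ± 0.105 FPKM). Of 23 further HIF pathway components 19 were in the table, with 2 called in each direction, where 8.87% of all genes were called higher and 11.1% lower. Cited2, which competes with HIF-1α for its coactivator, rose from 14.5 ± 1.46 to 54.8 ± 1.24 FPKM (log2 fold change 1.91, adjusted p = 3.69e-11), and Siah2, a ubiquitin ligase for the prolyl hydroxylases, rose from 8.25 ± 0.73 to 20.2 ± 2.09 FPKM (1.28). None of these 19 was called with either inhibitor against TCR, where 1.88% of all genes were called with PI3Kdi and 3.49% with MEKi. At adjusted p alone 1 was higher and 2 lower with PI3Kdi, and 3 were higher and 3 lower with MEKi. Of 46 further HIF target genes 36 were in the table, and 7 were called higher and 7 lower after stimulation, a share read beside 20.0% of all genes.

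Large changes among those 36 included rises of 3 genes. Pdgfb, a growth factor, went from 0.15 ± 0.108 to 25.1 ± 1.40 FPKM. Tnfaip3, known mainly as a feedback inhibitor of NF-κB, went from 3.68 ± 0.17 to 90.4 ± 4.06 FPKM and Fos, known mainly as an immediate early gene, from 0.493 ± 0.221 to 9.36 ± 0.229 FPKM. With PI3Kdi 3 of the 36 were called lower against TCR, among them Pdgfb and Loxl2, where 1.38% of all genes were. With MEKi 1 was called higher, Ddit4 (34.2 ± 2.62 to 90.5 ± 9.53 FPKM), and 4 lower, where 0.980% and 2.51% of all genes were. Loxl2, a collagen cross-linking enzyme, was at 8.38 ± 0.279 FPKM with MEKi and 1.94 ± 0.222 FPKM with PI3Kdi (log2 difference 2.06, adjusted p = 1.20e-08).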

How the data were processed

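RNA from 12 CTL cultures was sequenced as paired-end reads of 100 bases. Per the methods of the study and the submitters' processing notes, the authors aligned reads to mm10 with STAR 2.4.2a, counted them over RefSeq genes with Subread 1.5.0, removed genes with low counts, and deposited FPKM values after TMM normalisation in edgeR. Deposited counts were not used here, and whether the counting used strand was not given in the sources used here. All 12 value columns matched 1 sample each, and 0 could not be assigned.

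The FPKM values were tested with limma 3.58.1 in R 4.3.3, on log2(FPKM + 0.1), with an intensity trend and all 4 groups in 1 fit. P-values were Benjamini-Hochberg adjusted over 11022 genes for each of 6 comparisons. The fit was tested on simulated data. Tables and figures were made with Python 3.11.15, pandas 2.3.3, NumPy 2.4.6 and matplotlib 3.10.9. Alternatives were pseudocounts of 1 and 0.01, a mean of at least 1 FPKM, the TPM scale, quantile normalisation, a replicate block, the compared groups alone, no trend, a test against 2-fold, adjusted p alone and leaving out each sample.

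Values in every culture are given for genes called in any of the first 4 comparisons and, for each role, for the largest change among the rest. Non-members are named where called, at most 4 for each list and comparison, with Eno3 and Gm5506 added. Values of 1 listed gene are not reported here. Members and lists were chosen with earlier results of these data known. Depth was estimated from low values, of which 55.6% to 70.6% were whole read numbers to within 0.15 (30% by chance), so it is approximate. Promoter windows and sequences are from RefSeq on GRCm38.p6, gene positions and shared stretches of 100 bases from GENCODE M21.

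Whether cultures with the same replicate number came from the same mouse is not stated. Their deviations correlated at over 0.1 in every pair for PI3Kdi against TCR (0.239 to 0.451), MEKi against TCR (0.122 to 0.182) and MEKi against PI3Kdi (0.137 to 0.149), but not for TCR against unstimulated (0.0037 to 0.153), over 9899 genes.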

Additional observations from a re-analysis of the deposited data

Results flagged for a closer look

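Slc2a1 was singled out because the inhibitor groups differed by a test of the difference itself, MEKi minus PI3Kdi, which was -0.50 on the log2 scale (SE 0.07, adjusted p = 4.27e-05 by limma, n = 3 cultures each). Its change against TCR was in opposite directions on the deposited scale, but the fall with MEKi was -0.02 on the TPM scale (adjusted p = 0.781) and the rise with PI3Kdi did not pass without any one of 4 cultures. The difference between the inhibitors was -0.43 on the TPM scale and -0.50 with quantile normalisation.

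P4ha2 also differed by this test. It was lower with PI3Kdi than with TCR. With MEKi it did not pass on the deposited scale, but on the TPM scale it passed as higher (0.59). The tested difference was 1.68 on the log2 scale (SE 0.17, adjusted p = 3.76e-06), with all 3 MEKi cultures above all 3 PI3Kdi cultures. This difference was 1.76 on the TPM scale.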

How the results depend on the processing

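Over the alternatives of 55 single-gene comparisons, 1047 values kept their direction and side of the threshold, 45 kept the direction but no longer passed, and 6 reversed. The reversed ones were Hif1a after TCR stimulation (-0.39 on the TPM scale, -0.16 after quantile normalisation, and -0.015 to 0.063 when each sample was left out, below 0 without unstimulated replicate 2 at -0.012 and TCR replicate 2), Hk2 with MEKi against TCR (0.076 on the TPM scale) and Slc16a3 with PI3Kdi against unstimulated (-0.12 on the TPM scale). The cause was not tested.

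Without the 2-fold minimum, 28, 17, 15 and 19 genes were called for TCR against unstimulated, PI3Kdi against TCR, MEKi against TCR and MEKi against PI3Kdi, and 28 and 24 for PI3Kdi and MEKi against unstimulated. In the test against 2-fold these comparisons gave 6, 0, 0, 0, 3 and 5 calls, and Pdk1, Egln3 and Kdm3a were no longer called for TCR against unstimulated. For PI3Kdi against TCR a pseudocount of 1 and a mean of at least 1 FPKM each left 1 call. For MEKi against TCR a pseudocount of 0.01 gave 2 calls, quantile normalisation 0, and leaving out each sample 1 to 2, the second being Pfkfb4 without TCR replicate 3. For MEKi against unstimulated a pseudocount of 1 gave 5. The summed glycolysis level relative to unstimulated CTL was 0.986 with TCR, 0.899 with PI3Kdi and 0.992 with MEKi, and 0.740, 0.766 and 0.893 on the TPM scale.

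With the replicate block, the pairing left the number of called genes at 9, 2, 1, 1, 6 and 8 in the 6 comparisons, the same as without it. Genes whose test it changed are given with their results. Genes under about 1 FPKM rest on few reads.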

Other observations

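Other routes of sugar use were counted from the same fit. Of 14 pentose phosphate pathway genes 13 were in the table, and after TCR stimulation 3 were called lower and 0 higher, where 11.1% of all genes were called lower and 8.87% higher: H6pd (10.3 ± 0.993 to 4.30 ± 0.338 FPKM, log2 fold change -1.23), Shpk (-1.17) and Prps2, which makes the precursor of nucleotides (17.7 ± 0.958 to 8.52 ± 1.17 FPKM, -1.05). None was called with either inhibitor against TCR, while at adjusted p alone 5 were higher and 1 lower with MEKi. Of 16 glycogen genes 12 were in the table and 4 were called lower, where 11.1% of all genes were. They were the phosphorylases Pygl (-1.46) and Pygb (-1.03), the primer Gyg (48.2 ± 3.26 to 21.4 ± 1.28 FPKM, -1.17) and Ppp1r3b (-1.14), with a median log2 fold change of -0.58 beside -0.01 over all genes.

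Of 22 genes of mitochondrial pyruvate use 19 were in the table, and after TCR stimulation 1 was called higher and 2 lower, where 8.87% of all genes were called higher and 11.1% lower. Gpt2, which links pyruvate to alanine, rose from 2.43 ± 0.511 to 11.8 ± 0.11 FPKM after TCR stimulation (log2 fold change 2.25, adjusted p = 1.88e-10 by limma), and pyruvate carboxylase, Pcx, fell from 8.40 ± 0.433 to 2.83 ± 0.0666 FPKM (-1.54). Pdpr also fell after TCR stimulation, from 6.29 ± 0.725 to 2.92 ± 0.503 FPKM (-1.09). With MEKi against TCR 2 of the 19 were called lower, where 2.51% of all genes were. They were the pyruvate dehydrogenase phosphatase Pdp1 (10.2 ± 1.48 to 4.77 ± 0.421 FPKM, -1.08) and Pdk2 (0.783 ± 0.333 to 0.267 ± 0.0808 FPKM, -1.21). Of 18 regulators 17 were in the table, 2 called higher and 3 lower, beside the same shares of all genes. Sesn2, a stress-induced inhibitor of mTORC1 signalling, rose from 17.7 ± 1.21 to 44.1 ± 1.30 FPKM (1.31). Txnip, which restrains glucose uptake, fell from 165.0 ± 11.2 to 69.9 ± 3.46 FPKM (-1.24), Mycn from 63.3 ± 5.67 to 22.8 ± 1.80 FPKM (-1.47) and Sesn3 from 36.8 ± 0.183 to 15.5 ± 2.94 FPKM (-1.26). These lists were chosen with earlier results known, and nothing here tests a cause.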
